A study of Mus musculus with 6 samples.

Results

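Of the 19935 genes measured here in mouse lung, 34 encode innate immune receptors of 5 families: 10 Toll-like receptors, 5 Siglecs, 8 members of the Cd300 family, 6 of the Trem family and 5 of the leukocyte Ig-like and paired Ig-like receptors (Lilr and Pir). They were taken by symbol (Tlr followed by a digit, or names starting with Siglec, Cd300, Trem, Lilr, Pira or Pirb), from probe sets that the platform annotation gives exactly 1 symbol. Siglecf, a marker of eosinophils and alveolar macrophages, was left out of the families. Each of the 34 genes had 1 such probe set. There were 3 arrays of Scnn1b-Tg lung and 3 of wild-type lung, all of total RNA from lung, on a C57BL/6 genetic background. The transgene carries Scnn1b, which encodes a subunit (β) of the airway's sodium channel ENaC. In the published Scnn1b-Tg line a club cell secretory protein promoter drives it in airway epithelium, whereas the labels here name no promoter, age or sex. The series was made to look for emphysema candidate genes.

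Toll-like receptors recognise conserved microbial lipids, proteins and nucleic acids, and signal through MyD88 or TRIF to NF-κB and interferon regulatory factors. The other families are mostly paired receptors of myeloid cells. Their activating members couple to the adaptors DAP12 or the Fc receptor γ chain, which carry tyrosine-based activation motifs (ITAMs) and recruit the kinase Syk. Their inhibitory members carry tyrosine-based inhibitory motifs (ITIMs) that recruit the phosphatases SHP-1 and SHIP-1. In lung these receptors set how macrophages, monocytes, granulocytes and dendritic cells respond to microbes, lipids, sialic acids and MHC class I.

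Scnn1b, the gene of the transgene, had intensities of 1405, 1527 and 1333 on the Scnn1b-Tg arrays, against 172, 108 and 139 on the wild-type arrays. Its log2 fold change was 3.37 ± 0.16 (SE, limma adjusted p = 0.00241), and the arrays carried the genotypes of their labels in this respect. Values are RMA intensities on a linear scale. The lowest value on an array was 18.3 to 18.6 and array medians were 47.6 to 48.5. Genes listed as markers of other organs had mean intensities of 19.6 to 56.8, with a median of 31.3. Means of the 34 receptors ran from 27.8 to 78.9, and 3 were at or below that median. A signal in the range of the other-organ markers does not by itself show that a transcript was present. Lung identity was clear in the epithelial markers, with summed intensities of 22359 to 24151 on the Scnn1b-Tg arrays and 22501 to 24829 on the wild-type arrays, among them the surfactant gene Sftpc. Wild type replicate 2 stood apart on the first principal component (16.3, with the others between -8.91 and 5.46) and Scnn1b-Tg replicate 3 on the second (13.3, the remaining arrays lying from -8.03 to 2.47). Whether arrays of a genotype came from separate mice is not stated, so each p-value reflects variation among these arrays only, which may be technical. With 3 arrays a group, the number of arrays limits the precision.

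As a group the receptors were shifted to slightly higher values in Scnn1b-Tg lung, most in the Lilr and Pir and the Cd300 families, but none passed the threshold. With limma and Benjamini-Hochberg adjustment over all genes, 0 of 34 were called at an adjusted p under 0.05, beside 0.00502% of all genes, which is Scnn1b alone. At an unadjusted p under 0.05, 12 members were higher (35.3%, against 3.96% of all genes) and 1 was lower (Treml4, against 2.05% of all genes). A total of 28 members had a positive log2 fold change, beside 53.2% of all genes. The median was 0.10 over the members and 0.0052 over all genes. With single arrays left out the members' median ran from 0.08 (without wild type replicate 2) to 0.17 (without Scnn1b-Tg replicate 3). On 12 members the 3 Scnn1b-Tg arrays lay wholly above the 3 wild-type arrays, beside 6.26% of all genes, and on 0 wholly below, beside 4.41%. The 12 members higher at an unadjusted p under 0.05 and the 12 with separate arrays shared 11 genes. On the deposited scale the largest ratio was 1.46-fold, for Lilr4b. With 16 subtracted before log2, in case a constant had been added, it was 1.89-fold, for Lilra6, against 1.62-fold for Lilr4b. Leaving out Scnn1b-Tg replicate 1 or 2 reduced the members at an unadjusted p under 0.05 to 8, and leaving out both arrays that stood apart gave 15. The shares of all genes past that threshold were 6.11%, 4.67% and 7.13% in these 3 settings, beside 6.01% in the main fit.

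**Figure D1:**
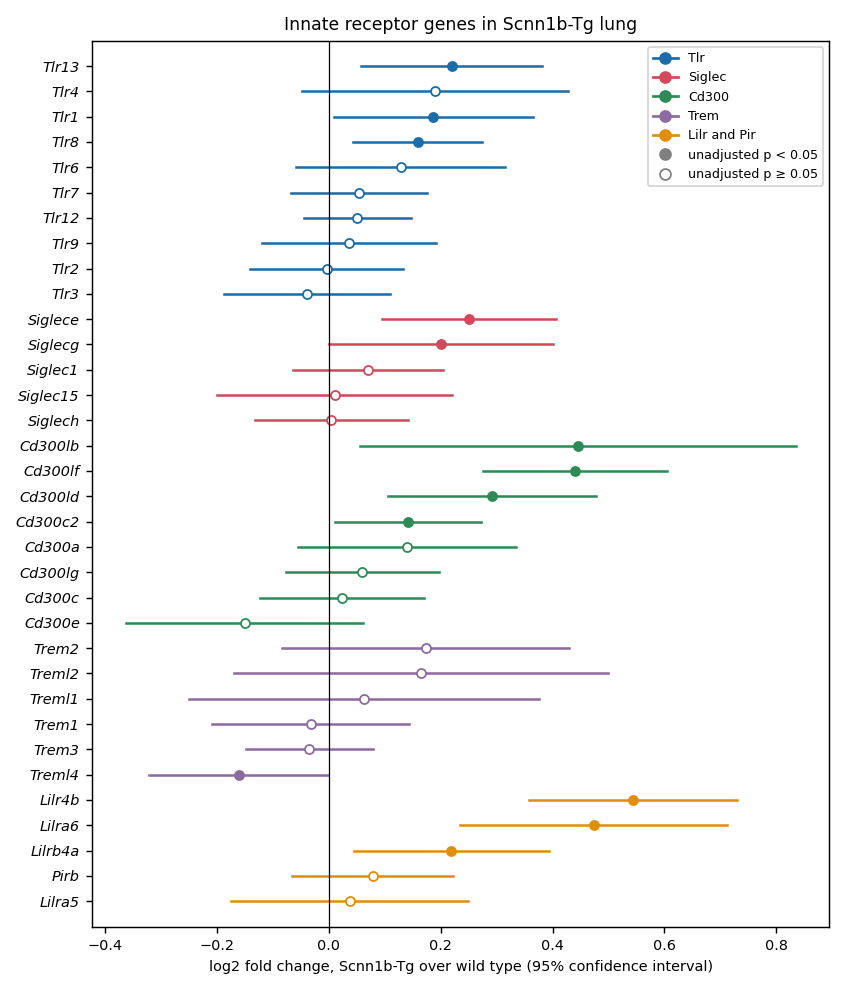
Log2 fold change of each of the 34 receptor genes, Scnn1b-Tg over wild type (horizontal axis), with its 95% confidence interval from limma, ordered by family and size. Filled points have an unadjusted p under 0.05: 12 to the right of 0 and Treml4 to the left, while none passed adjustment over all genes.

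The Lilr and Pir family had the largest median, 0.22, with 5 of 5 members positive, 3 at an unadjusted p under 0.05 and 3 with separate arrays. Beside the counts of this and the other families, 53.2% of all genes were positive. Of all genes 3.96% were higher at an unadjusted p under 0.05, and 6.26% had the Scnn1b-Tg arrays wholly above. Lilr4b (gp49A) lacks inhibitory motifs and is a close relative of the inhibitory Lilrb4a (gp49B) of mast cells, macrophages and granulocytes. Lilr4b intensities were 90.6, 93.6 and 80.5 in Scnn1b-Tg lung, against 63.9, 55.5 and 62.1 in wild-type lung. Every transgenic array was above every wild-type array, with a gap wider than the spread inside either group. Its log2 fold change was 0.54 ± 0.08 (SE, 95% interval 0.36 to 0.73, adjusted p = 0.151), the smallest adjusted p of the 34. With the 6645 dimmest genes left out the adjusted p of Lilr4b was 0.0290 (0.293% of genes called), and with an intensity trend and robust variance it was 0.0305 (0.181% of genes called). Over all 15 alternatives its adjusted p ran to 0.525 and its log2 fold change from 0.48 to 0.70. Lilrb4a, its direct neighbour on chromosome 10, had 77.1, 78.8 and 73.3 in Scnn1b-Tg lung, against 62.3, 73.0 and 62.1 in wild-type lung. Its arrays were also separate, but wild type replicate 2 came close to the lowest transgenic array, and the log2 fold change was 0.22 ± 0.07 (adjusted p = 0.750). RNA of such close relatives can bind the same probes, and whether these probe sets tell Lilr4b from Lilrb4a was not tested.

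Lilra6 is a PIR-A type receptor that signals through the Fc receptor γ chain, and Pirb its inhibitory counterpart, which binds MHC class I. Lilra6 had 44.0, 40.4 and 36.5 in Scnn1b-Tg lung, against 31.2, 25.4 and 30.6 in wild-type lung. The groups did not overlap, and wild type replicate 2 was the lowest array. The log2 fold change of Lilra6 was 0.47 ± 0.10 (95% interval 0.24 to 0.71, adjusted p = 0.360). It was 0.38 without wild type replicate 2 and 0.92 with 16 subtracted before log2 (adjusted p = 0.123). Pirb had 58.8, 56.4 and 54.5 in Scnn1b-Tg lung, against 57.4, 53.0 and 50.5 in wild-type lung. Its groups overlapped, and its log2 fold change was 0.08 ± 0.06 (adjusted p = 0.931). The remaining member, Lilra5, an activating receptor, gave 0.04 ± 0.09 with overlapping arrays. Omitting wild type replicate 3 gave 0.04 for Pirb. The difference between Lilra6 and Pirb was not tested, nor was whether their probe sets tell these relatives apart.

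The promoters of these genes are shown because Lilra6 and Pirb share nearly the same sequence, while of the 2 only Lilra6 had separate arrays. They are also shown because the members higher in Scnn1b-Tg lung include genes with and without matches to GAGGAA. Each is 250 bases before to 50 after a start listed for the gene (GRCm38.p6), 5′ to 3′. A listed start is not always the outer end of the RefSeq gene. Matches to GAGGAA or its reverse complement TTCCTC are in capitals. GAGGAA is a form of the site bound by the myeloid and B cell factor PU.1, and other forms of that site were not counted.
Lilra6, chr7:3915452-3915751, minus strand: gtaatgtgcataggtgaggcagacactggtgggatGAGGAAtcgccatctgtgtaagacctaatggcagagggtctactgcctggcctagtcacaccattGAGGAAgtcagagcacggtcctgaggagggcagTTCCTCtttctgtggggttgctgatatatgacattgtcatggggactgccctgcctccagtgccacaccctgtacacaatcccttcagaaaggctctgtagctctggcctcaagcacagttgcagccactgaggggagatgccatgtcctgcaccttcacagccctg
Pirb, chr7:3720333-3720632, minus strand: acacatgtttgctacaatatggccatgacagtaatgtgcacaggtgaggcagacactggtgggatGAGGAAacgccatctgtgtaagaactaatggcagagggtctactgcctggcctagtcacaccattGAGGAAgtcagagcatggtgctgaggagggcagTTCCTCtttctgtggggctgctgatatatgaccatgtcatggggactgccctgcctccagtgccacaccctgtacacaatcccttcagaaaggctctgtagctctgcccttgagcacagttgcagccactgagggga
Lilr4b, chr10:51480362-51480661, plus strand: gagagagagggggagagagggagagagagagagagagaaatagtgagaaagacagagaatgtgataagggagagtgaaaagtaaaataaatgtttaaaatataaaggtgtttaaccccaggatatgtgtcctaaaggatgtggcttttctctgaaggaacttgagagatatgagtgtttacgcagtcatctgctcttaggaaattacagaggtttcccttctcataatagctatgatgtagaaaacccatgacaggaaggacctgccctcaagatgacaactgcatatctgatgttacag
Over the 270 bases in which they align, the Lilra6 and Pirb windows differed at 11 positions with 0 gaps (95.9% identity), and each held 3 matches. The Lilr4b window held 0 matches. Of the 34 members 26 had a window in the RefSeq table, 29 windows in all. GAGGAA on either strand was present in 17 of these (58.6%), against 28.3% of all 32851 windows. A C/EBP type motif, TTGCNNAA, was present in 8 (27.6%, against 10.8%), both strands counted, with 0 overlaps between the motifs. Some windows overlap or belong to the same gene or to related genes, so they are not independent, and a match in letters is not a measured site.

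In 2 further probe sets, which the annotation gives to 6 symbols at once (Pira1, Pira2, Lilra6, Pirb, Gm15448 and Gm10693), the values went the same way. The brighter had 125, 97.9 and 93.0 in Scnn1b-Tg lung, against 74.7, 58.3 and 73.8 in wild-type lung. In a fit of all 28815 probe sets its log2 fold change was 0.61 ± 0.14 (adjusted p = 0.524). The other had 74.6, 57.3 and 58.5 in Scnn1b-Tg lung, against 45.1, 37.3 and 46.3 in wild-type lung, a log2 fold change of 0.56 ± 0.13 (adjusted p = 0.494). Neither set overlapped between genotypes, and Scnn1b-Tg replicate 1 was the highest array in both. Which of the 6 genes gave these signals cannot be told from the probe sets.

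**Figure D2:**
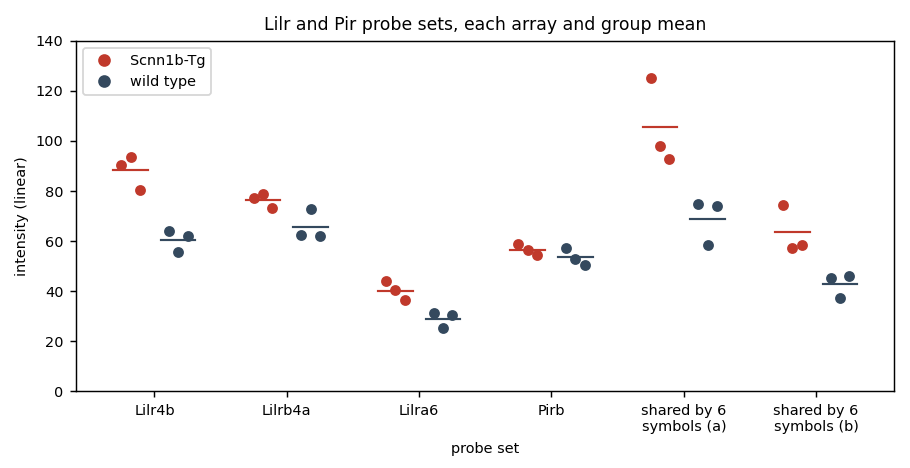
Linear intensity (vertical axis) of the 4 leading Lilr and Pir members and of the 2 probe sets shared by 6 symbols, each array as a point (replicates 1, 2 and 3 from the left) and the group mean as a line. Lilr4b, Lilrb4a, Lilra6 and both shared probe sets are separate between the genotypes, and Pirb overlaps.

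Of the 8 Cd300 genes 7 were positive, 4 were higher at an unadjusted p under 0.05 and 4 had separate arrays, with a median of 0.14. The Cd300 receptors bind lipids exposed on dying cells and microbes, and 7 of the 8 lie in a cluster on chromosome 11. Cd300lf (CLM-1), an inhibitory receptor that also serves as the receptor of murine norovirus, had 82.9, 74.7 and 72.0 in Scnn1b-Tg lung, against 60.0, 54.6 and 54.4 in wild-type lung. The lowest transgenic array was well above the highest wild-type array. Its log2 fold change was 0.44 ± 0.07 (95% interval 0.28 to 0.61, adjusted p = 0.173), and its adjusted p over the alternatives ran from 0.0594 to 0.629. Cd300ld (CLM-5), an activating receptor, had 51.8, 42.9 and 46.1 in Scnn1b-Tg lung, against 37.9, 36.4 and 40.5 in wild-type lung. Its groups were separate by a small margin, with a log2 fold change of 0.29 ± 0.08 (adjusted p = 0.561). Cd300lb (CLM-7), which couples to DAP12, had 65.9, 46.0 and 40.3 in Scnn1b-Tg lung, against 36.8, 36.04 and 36.5 in wild-type lung. The wild-type arrays were nearly equal and the transgenic arrays widely spread, with replicate 1 far above the others. The log2 fold change of Cd300lb was 0.45 ± 0.16 (adjusted p = 0.764) and 0.24 without Scnn1b-Tg replicate 1. Cd300c2 (CLM-4), also a DAP12-coupled receptor, had 82.6, 79.2 and 74.6 in Scnn1b-Tg lung, against 69.1, 70.8 and 74.3 in wild-type lung. Here the nearest arrays of the groups were almost equal, and the log2 fold change was 0.14 ± 0.06 (adjusted p = 0.784).

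The other Cd300 genes overlapped between the genotypes. Inhibitory Cd300a gave a log2 fold change of 0.14 ± 0.08, endothelial Cd300lg, which binds L-selectin on high endothelial venules, 0.06 ± 0.06, and Cd300c 0.02 ± 0.06. Cd300e, an activating receptor of monocytes, was the only negative member at -0.15 ± 0.09, with 39.6, 41.0 and 45.8 in Scnn1b-Tg lung, against 45.6, 42.6 and 52.3 in wild-type lung. Omitting wild type replicate 3 gave -0.07. Within the chromosome 11 cluster, log2 fold changes ran from -0.15 to 0.45. A pair of probe sets shared by Cd300ld3, Cd300ld4 and Cd300ld5 gave 0.11 ± 0.10 and 0.04 ± 0.12, both with overlapping arrays. The window of Cd300lf, the member of the cluster with the smallest p, is shown as above with its PU.1-type matches in capitals. It lies inside the RefSeq gene, whose outer end on the minus strand is near base 115135000.
Cd300lf, chr11:115133943-115134242, minus strand: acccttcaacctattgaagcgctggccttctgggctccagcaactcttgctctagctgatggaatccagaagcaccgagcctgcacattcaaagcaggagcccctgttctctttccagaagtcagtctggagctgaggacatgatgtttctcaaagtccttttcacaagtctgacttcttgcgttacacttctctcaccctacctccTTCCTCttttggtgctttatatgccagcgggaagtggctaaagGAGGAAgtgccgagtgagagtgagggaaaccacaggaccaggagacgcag
It held 2 matches, against 1 in the windows of Cd300a, Cd300ld and Cd300c2 and 0 in those of Cd300lb, Cd300c and Cd300e.

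**Figure D3:**
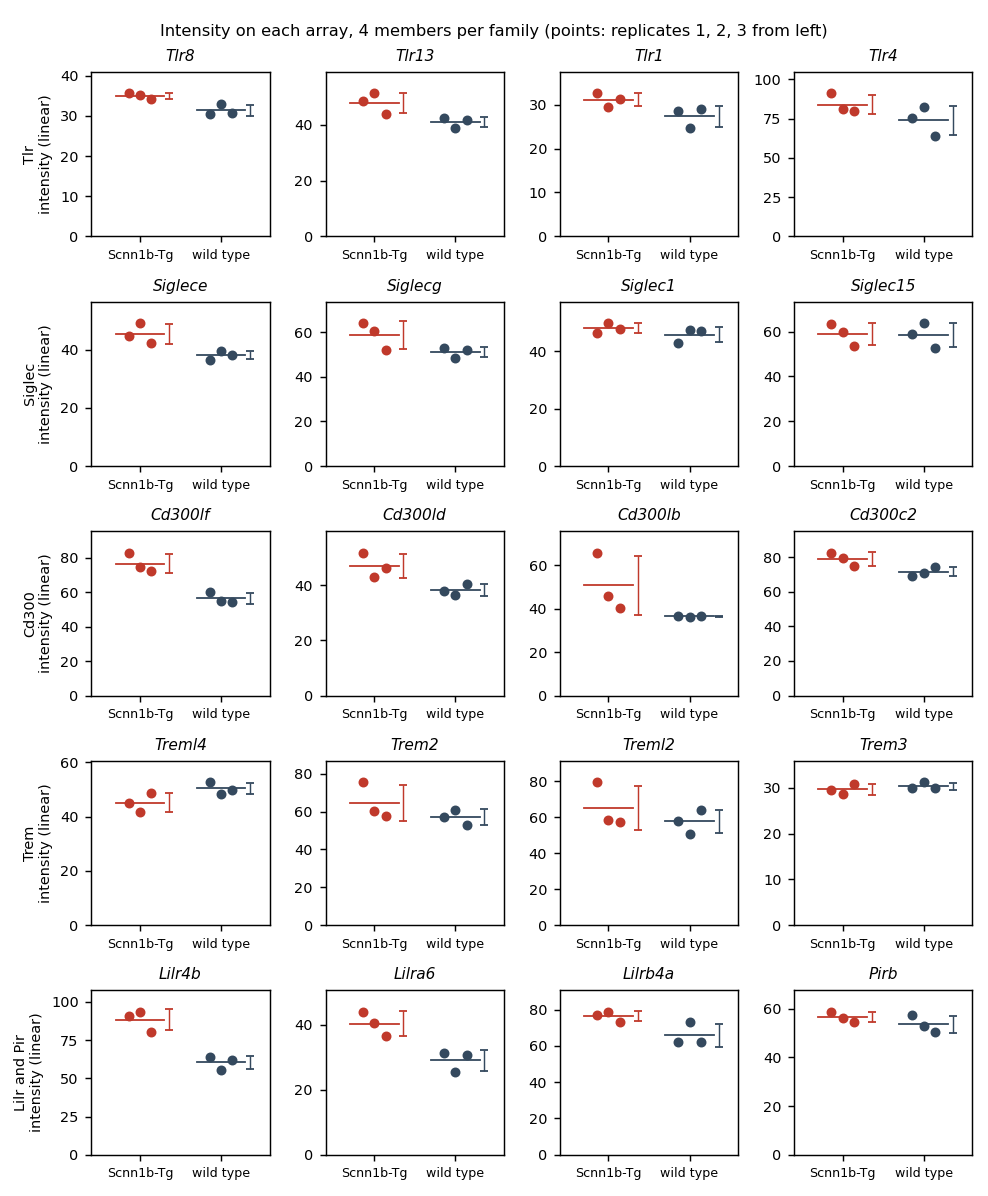
Linear intensity on every array (vertical axis, starting at 0) for the 4 members of each family with the smallest p, with Scnn1b-Tg to the left of wild type. Points are replicates 1 to 3 from the left, lines are group means and bars are the SD of 3 arrays; Lilr4b and Cd300lf show the widest gaps and the Trem genes overlap.

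All 5 Siglecs, receptors of sialic acid, had a positive log2 fold change, with a median of 0.07, and 2 were higher at an unadjusted p under 0.05. Siglece, an inhibitory receptor of neutrophils, monocytes and macrophages, had 44.8, 49.2 and 42.4 in Scnn1b-Tg lung, against 36.6, 39.6 and 38.3 in wild-type lung. It was the member of the family with separate arrays, and its log2 fold change was 0.25 ± 0.07 (95% interval 0.10 to 0.41, adjusted p = 0.530). Siglecg, an inhibitory receptor of B cells, had 64.3, 60.8 and 51.9 in Scnn1b-Tg lung, against 53.0, 48.5 and 52.0 in wild-type lung. Scnn1b-Tg replicate 3 lay inside the wild-type range, and the log2 fold change was 0.20 ± 0.08 (adjusted p = 0.822), its unadjusted p lying just under the threshold. Summed B cell markers overlapped, at 462 to 580 on the Scnn1b-Tg arrays and 390 to 557 on the wild-type arrays. Siglec1 (sialoadhesin), which macrophages use to bind sialylated cells, had 46.3, 49.8 and 47.7 in Scnn1b-Tg lung, against 42.8, 47.4 and 46.9 in wild-type lung, a log2 fold change of 0.07 ± 0.06. Siglec15, a DAP12-coupled receptor of osteoclasts, had 63.2, 59.8 and 53.6 in Scnn1b-Tg lung, against 58.8, 63.9 and 52.8 in wild-type lung. The arrays of both genes overlapped, and for Siglec15 the log2 fold change was 0.01 ± 0.09. Siglech, a marker of plasmacytoid dendritic cells, gave 0.0047 ± 0.06 (95% interval -0.13 to 0.14). The summed level of the other markers of those cells was 946 to 989 on the Scnn1b-Tg arrays and 953 to 978 on the wild-type arrays.
The Siglece window, as the family's member with the smallest p, is shown with the same capitals. It lies well inside the RefSeq gene, whose outer end on the minus strand is near base 43672000.
Siglece, chr7:43660112-43660411, minus strand: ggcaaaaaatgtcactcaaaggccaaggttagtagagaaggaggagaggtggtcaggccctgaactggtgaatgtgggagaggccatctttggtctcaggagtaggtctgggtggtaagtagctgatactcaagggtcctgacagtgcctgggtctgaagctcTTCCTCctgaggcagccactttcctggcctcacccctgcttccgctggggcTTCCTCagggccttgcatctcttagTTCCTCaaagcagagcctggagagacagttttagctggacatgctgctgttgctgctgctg
It held 3 matches to GAGGAA or its reverse complement.

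The Trem family was the least shifted, with 3 of 6 positive, a median of 0.02 and 0 members with separate arrays. All 6 genes lie in a cluster on chromosome 17. Treml4, a DAP12-associated receptor of dendritic cells and macrophages, had 44.8, 41.7 and 48.7 in Scnn1b-Tg lung, against 52.7, 48.4 and 49.9 in wild-type lung. It was the only member lower at an unadjusted p under 0.05, with a log2 fold change of -0.16 ± 0.07 (adjusted p = 0.822). Scnn1b-Tg replicate 3 overlapped the wild-type arrays. Omitting Scnn1b-Tg replicate 2 gave -0.11, and under 7 of 16 alternatives no member was lower at an unadjusted p under 0.05. Trem2, a lipid receptor of tissue macrophages, had 75.6, 60.5 and 57.8 in Scnn1b-Tg lung, against 57.4, 60.9 and 52.7 in wild-type lung. Treml2 had 79.6, 58.5 and 57.5 in Scnn1b-Tg lung, against 58.2, 51.0 and 64.0 in wild-type lung. In both, Scnn1b-Tg replicate 1 stood above all other arrays and the rest overlapped. Their log2 fold changes were 0.17 ± 0.11 for Trem2 and 0.17 ± 0.14 for Treml2, and without Scnn1b-Tg replicate 1 they were 0.05 and 0.01. Trem3, a mouse receptor close to Trem1, had 29.5, 28.6 and 30.9 in Scnn1b-Tg lung, against 30.01, 31.3 and 29.9 in wild-type lung. The arrays of Trem3 overlapped, with a log2 fold change of -0.03 ± 0.05. Treml1, a receptor of platelet granules, gave 0.06 ± 0.13, and Trem1, which amplifies neutrophil and monocyte responses, -0.03 ± 0.07. Summed platelet markers overlapped too, at 542 to 817 in Scnn1b-Tg lung and 372 to 902 in wild-type lung.

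Among the 10 Toll-like receptors, 8 were positive, 3 were higher at an unadjusted p under 0.05 and 4 had separate arrays, with a median of 0.09. Tlr8 and Tlr13 are endosomal sensors of RNA, Tlr13 recognising bacterial ribosomal RNA in mice. Tlr8 had 35.6, 35.3 and 34.1 in Scnn1b-Tg lung, against 30.4, 32.9 and 30.8 in wild-type lung. Tlr13 had 48.3, 51.2 and 43.9 in Scnn1b-Tg lung, against 42.3, 38.9 and 41.7 in wild-type lung. Both were separate by a narrow margin, and their log2 fold changes were 0.16 ± 0.05 for Tlr8 (adjusted p = 0.693) and 0.22 ± 0.07 for Tlr13 (adjusted p = 0.707). Tlr1, the partner of Tlr2 for triacylated lipoproteins, had 32.5, 29.5 and 31.2 in Scnn1b-Tg lung, against 28.6, 24.6 and 28.9 in wild-type lung. Its arrays were separate, the log2 fold change was 0.19 ± 0.07 (adjusted p = 0.803), and 0.11 when wild type replicate 2 was omitted. With 16 subtracted before log2, Tlr1 gave 0.43 and Tlr8 0.31. Both were dim, with means of 29.2 for Tlr1 and 33.2 for Tlr8, near the median of the other-organ markers, 31.3. Tlr4, the receptor of lipopolysaccharide, had 91.0, 80.8 and 80.02 in Scnn1b-Tg lung, against 75.6, 82.1 and 63.8 in wild-type lung. Wild type replicate 2 lay within the transgenic range, and the log2 fold change of Tlr4 was 0.19 ± 0.10 (adjusted p = 0.882), or 0.09 without wild type replicate 3.

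Of the other lipoprotein receptors, Tlr2 had a log2 fold change of -0.0036 ± 0.06 (95% interval -0.14 to 0.13) and its partner Tlr6 0.13 ± 0.08, which was 0.06 without Scnn1b-Tg replicate 1. For the remaining nucleic acid sensors the log2 fold changes were -0.04 ± 0.06 for Tlr3 (double-stranded RNA), 0.05 ± 0.05 for Tlr7 (single-stranded RNA) and 0.04 ± 0.07 for Tlr9 (unmethylated CpG DNA). Tlr12, a mouse sensor of parasite profilin, gave 0.05 ± 0.04. Its arrays were separate (33.8, 33.0 and 33.4 in Scnn1b-Tg lung, against 31.7, 32.9 and 32.1 in wild-type lung) although the unadjusted p was 0.249. By site, the medians were 0.16 for the 4 cell-surface receptors (Tlr1, Tlr2, Tlr4 and Tlr6) and 0.05 for the 6 endosomal ones, a grouping made after the values were seen.

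**Figure D4:**
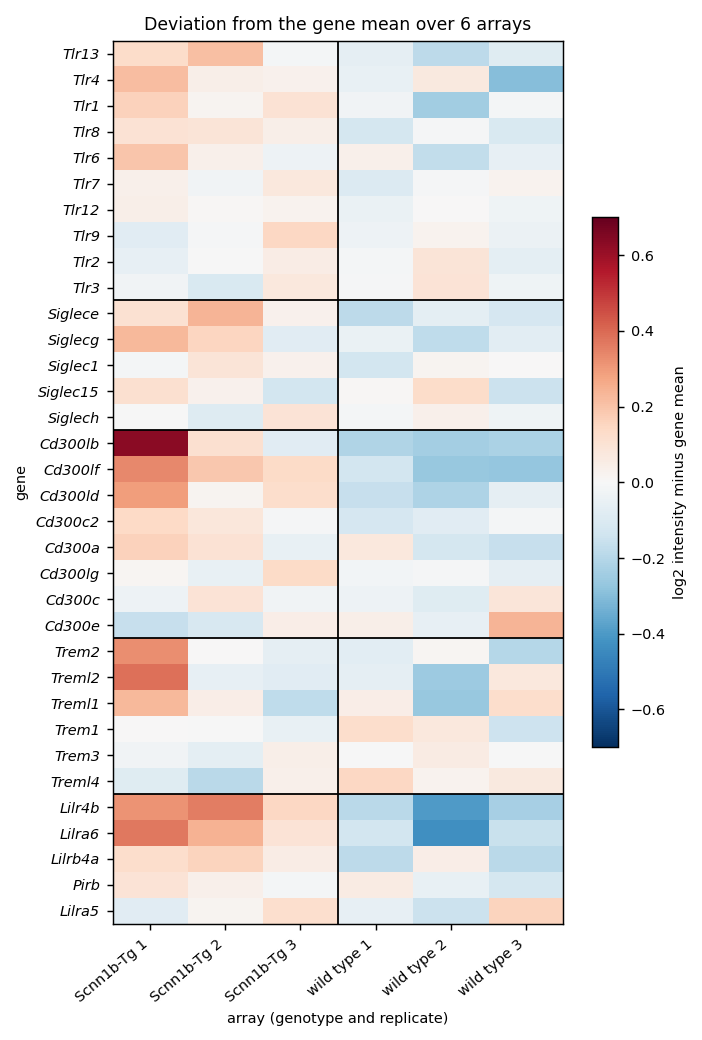
Log2 intensity minus the gene's mean over 6 arrays (colour) for the 34 receptor genes (rows, by family) on each array (columns, Scnn1b-Tg to the left). Scnn1b-Tg replicate 1 is the highest array for 16 genes, most visibly for Cd300lb, and wild type replicate 2 is lowest for Lilr4b and Lilra6.

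Sorted by signalling rather than by family, again after the values were seen, 7 receptors with ITIMs (Cd300a, Cd300lf, Lilrb4a, Pirb, Siglece, Siglecg and Treml1) were positive, by 0.06 to 0.44, and 4 had an unadjusted p under 0.05. Treml1, the smallest of them, was negative without wild type replicate 2 (-0.05) or Scnn1b-Tg replicate 1 (-0.04). Of 12 receptors that couple to activating adaptors 8 were positive, by values from -0.16 to 0.47 over the group, 4 were higher and 1 lower at an unadjusted p under 0.05. The medians were 0.20 for the receptors with ITIMs and 0.02 for the activating ones, and the difference between these groups was not tested. Scnn1b-Tg replicate 1 was the highest of the 6 arrays for 16 of the 34 members (47.1%), against 13.8% of all genes. Replicate 2 was highest for 6 members and replicate 3 for 4. Median deviations of the members from their means were 0.11, 0.03 and 0.03 on the Scnn1b-Tg arrays, against -0.05, -0.05 and -0.06 on the wild-type arrays.

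Downstream partners of these receptors were taken from 4 lists of genes chosen by role. None of their members was called in the fit of all genes. Beside the counts of all 4 lists, 53.2% of all genes were positive. At an unadjusted p under 0.05, 3.96% of all genes were higher and 2.05% lower. Of 13 measured ITAM adaptors and kinases 13 were positive, with a median of 0.19, and 8 were higher and 0 lower at an unadjusted p under 0.05. Plcg2, a phospholipase C that Syk activates, had 69.8, 64.8 and 67.7 in Scnn1b-Tg lung, against 50.01, 53.8 and 54.0 in wild-type lung. Its log2 fold change was 0.36 ± 0.05 (adjusted p = 0.151). Syk itself gave 0.35 ± 0.06 and the scaffold Lcp2 (SLP-76) 0.30 ± 0.05, both with separate arrays and an adjusted p of 0.225. Of 10 ITIM phosphatases and partners 9 were positive, and 3 were higher and 0 lower at an unadjusted p under 0.05. Those 3 were the adaptor proteins Dok2 (0.37 ± 0.05, adjusted p = 0.151) and Dok3 (0.33 ± 0.09, adjusted p = 0.559) and the lipid phosphatase SHIP-1, Inpp5d (0.20 ± 0.06, adjusted p = 0.561). The phosphatase SHP-1, Ptpn6, gave 0.20 ± 0.10 with overlapping arrays.

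Of 27 measured TLR accessory proteins and adaptors 23 were positive, with a median of 0.09, and 4 were higher and 0 lower at an unadjusted p under 0.05. Ly86 (MD-1), which pairs with the TLR4-like receptor Cd180, had 207, 176 and 189 in Scnn1b-Tg lung, against 138, 130 and 152 in wild-type lung. Its log2 fold change was 0.45 ± 0.08 (adjusted p = 0.225). Unc93b1, the chaperone of endosomal Toll-like receptors, gave 0.22 ± 0.07, and Tnfaip3 (A20), an inhibitor of NF-κB signalling, 0.25 ± 0.08, both with separate arrays. Among 13 measured paired receptors outside the 5 families 10 were positive, and 3 were higher and 0 lower at an unadjusted p under 0.05. Fcgr2b, the inhibitory IgG receptor, had 98.2, 93.2 and 90.4 in Scnn1b-Tg lung, against 63.6, 61.1 and 68.4 in wild-type lung. It had the smallest p (0.55 ± 0.06, adjusted p = 0.109), followed by Sirpa, the receptor of CD47 (0.15 ± 0.06), and the C-type lectin Clec4a2 (0.21 ± 0.08).

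**Figure D5:**
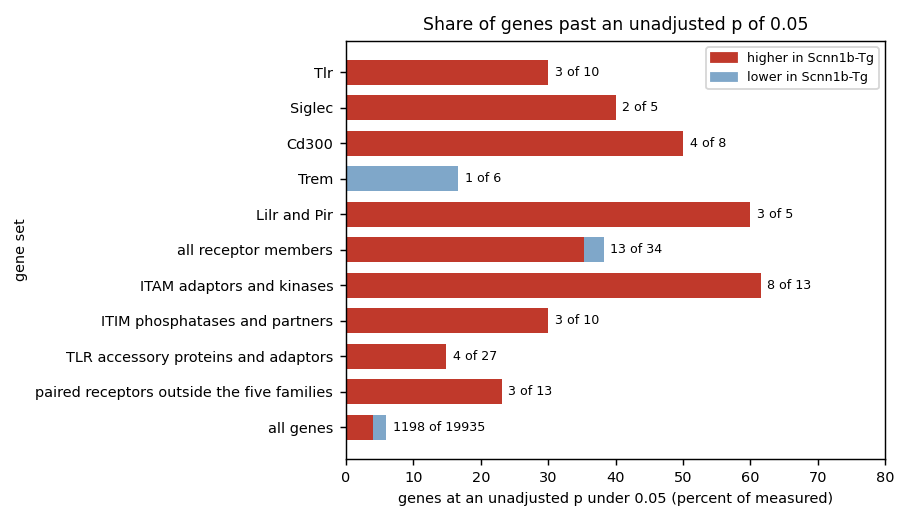
Percent of measured genes in each set with an unadjusted p under 0.05 (horizontal axis, starting at 0), split into higher and lower in Scnn1b-Tg. Of ITAM adaptors and kinases 8 of 13 and of the receptors 13 of 34 lie past it, beside 6.01% of all genes, and in the Trem family the only such gene is lower.

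Marker levels of the cells that carry these receptors also differed between the genotypes for several lists, although none of the markers passed adjustment in the fit of all genes. With the 6645 dimmest genes left out, 4 of the markers named here did: Alox15 (adjusted p = 0.00317), Chil3 (adjusted p = 0.00997), Itgam and H2-Ab1 (adjusted p = 0.0225 each). In that setting 0.293% of all 13290 genes were called. The 4 are not a count over the whole marker lists. Their part in the receptor values was not tested. In bulk lung RNA, more cells of a type and more RNA per cell cannot be told apart. Summed macrophage markers were 4520 to 5015 in Scnn1b-Tg lung, against 2799 to 3101 in wild-type lung, with 16 of 18 positive and the largest values for Chil3 (1.34) and Itgam (0.91). Most of that gap came from Chil3. Without it the sums were 2339, 2267 and 2575 in Scnn1b-Tg lung, against 1957, 2009 and 2059 in wild-type lung. Of these 18 markers 10 had separate arrays. Those that overlapped included Fabp4 (0.76), Pparg (0.07), Cd163 (0.05), Mertk (0.04), Marco (0.01), Fabp5 (-0.01) and Car4 (-0.06). Eosinophil markers summed to 627 to 1069 in Scnn1b-Tg lung, highest on replicate 1, against 355 to 384 in wild-type lung (8 of 9 positive, Alox15 2.46 and Ccr3 1.404). Of these 9 markers 5 had separate arrays, whereas Ear6 (0.21), Epx (0.07), Gata1 (0.03) and Prg3 (-0.0017) overlapped. Without Alox15 the eosinophil sums were 546, 429 and 353 in Scnn1b-Tg lung, against 307, 307 and 303 in wild-type lung. Dendritic cell markers summed to 1208 to 1479 in Scnn1b-Tg lung, against 969 to 1027 in wild-type lung (9 of 10 positive, H2-Ab1 0.65 and Cd209a 0.58). Most of that gap came from H2-Ab1, without which the sums were 560, 552 and 492 in Scnn1b-Tg lung, against 478, 467 and 456 in wild-type lung. Of these 10 markers 4 had separate arrays, and those that overlapped included Flt3 (0.21), Xcr1 (0.08), Clec9a (0.08) and Zbtb46 (-0.04). The arrays of Cd209a overlapped, and it gave 0.34 without Scnn1b-Tg replicate 1 and 0.86 without Scnn1b-Tg replicate 3. The macrophage, eosinophil and dendritic cell sums stayed separate whichever single marker was omitted.

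Separation of the sums rested on single genes in 3 further lists. Neutrophil markers summed to 818 to 1072 in Scnn1b-Tg lung, against 581 to 714 in wild-type lung, and without Retnlg (1.38) to 510, 504 and 573 in Scnn1b-Tg lung, against 525, 486 and 536 in wild-type lung, which overlap. Of these 13 markers 7 were positive and 6 negative, with a median of 0.01. Mmp9 was at 0.30, and Mmp8, at -0.12, had all Scnn1b-Tg arrays below the wild-type arrays. Elane, Camp, Mpo, S100a8 and Ngp were also negative. Monocyte markers summed to 2542 to 2730 in Scnn1b-Tg lung, against 1843 to 2357 in wild-type lung (7 of 7 positive, Ccr2 0.66 and Cd177 0.46, a gene better known from neutrophils). Without Fn1, a matrix gene that many lung cells express, the monocyte sums were 773, 896 and 982 in Scnn1b-Tg lung, against 731, 776 and 805 in wild-type lung, which overlap. T and NK cell sums were 386 to 394 in Scnn1b-Tg lung and 346 to 376 in wild-type lung, and overlapped without Il7r (0.41) or without Cd3g (0.16). Of these 9 markers 5 were positive, near the share of all genes, with a median of 0.02, and Cd3e, Cd8a, Gzma and Ncr1 were negative. Mast cell and basophil sums overlapped, at 885 to 922 in Scnn1b-Tg lung and 840 to 975.5 in wild-type lung (Hdc 0.23 and Cpa3 0.12). Endothelial sums overlapped as well, with 0 of 9 markers positive (Cldn5 -0.16 and Kdr -0.12). That overlap rested on 1 marker: without Cdh5 every Scnn1b-Tg sum was below every wild-type sum. Largest values in the B cell (Cd79b 0.18, Cd79a 0.18), plasmacytoid (Irf8 0.18, Spib 0.12), platelet (Ppbp 0.19, Itgb3 0.19), epithelial (Scgb1a1 -0.31, Scgb3a2 -0.29) and other-organ lists (Alb 0.10, Gfap -0.07) did not pass either. No marker has a value of 0 on these arrays, where the lowest intensity is 18.3.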

How the data were processed

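Per the labels' protocols, lung RNA was isolated with Trizol, and targets made by Affymetrix whole-transcript sense labelling were run on 6 arrays. The authors deposited 1 column of intensities per sample, and the submitters' processing notes name RMA for it. The version and settings of RMA: not given in the sources used here. The values themselves show a linear scale, and a constant added to them before deposit is possible and unknown. There were 28815 probe sets. The platform annotation gave exactly 1 symbol to 21780 of them and several to 1605, while 5430 had no entry. Keeping the brightest probe set per gene left 19935 genes. All 34 receptor symbols matched RefSeq by Entrez identifier.

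The fit used limma 3.58.1 (lmFit and eBayes) under R 4.3.3 on log2 of the intensities, with genotype as the only term and 4 residual and 6.99 moderated degrees of freedom. Tests were two-sided, Benjamini-Hochberg adjusted over all genes and called at 0.05, and unadjusted p-values are from the same fit. No filter on dim values was used; an alternative that left out the 6645 dimmest genes kept 25 of the 34 members. Errors are standard errors of log2 fold changes. Levels of different probe sets were not compared, except that receptor means were set beside those of the other-organ markers. Marker sums add linear intensities of different probe sets, so the brightest probe sets weigh most in them. Simulated data for this comparison, with 19935 genes of which 200 changed, gave 76.7% recovery at a log2 change of 0.5 and 96.3% at 1; that share does not carry over to a comparison with few changed genes.

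The receptor families, gene lists and alternatives were chosen with earlier results of these data known. Values array by array are given for the 4 members of each family with the smallest p. For each list by role the 3 smallest p-values are named, with Ptpn6 added. For each cell type list the 2 largest absolute log2 fold changes are named, in some lists beside further markers. The role grouping of the receptors, the fit of all probe sets and the marker sums without single genes were added after the values were seen. Alternatives were other normalizations, filters, probe set rules, variance models, a replicate block, 16 subtracted before log2, and arrays left out.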

Additional observations from a re-analysis of the deposited data

Results flagged for a closer look

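A pair of probe sets outside the genes compared above, because the annotation gives each to 6 paired Ig-like receptor symbols (Pira1, Pira2, Lilra6, Pirb, Gm15448 and Gm10693), had signal above the control arrays. Their log2 fold changes, Scnn1b-Tg over wild type, were 0.61 and 0.56. On both, every Scnn1b-Tg array was above every wild-type array. Single arrays left out moved the brighter from 0.48 to 0.69 and the dimmer from 0.44 to 0.63. Means were 105 ± 17.4 in Scnn1b-Tg lung against 69.0 ± 9.21 in wild-type lung (SD, n = 3 each) for the brighter. For the dimmer they were 63.5 ± 9.63 in Scnn1b-Tg lung against 42.9 ± 4.86 in wild-type lung. Groups of 3 arrays are too small for a test of single arrays that stand apart.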

How the results depend on the processing

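The number of genes called was 1 and became 39 without the 6645 dimmest genes, 36 when the variance was modelled robustly with an intensity trend, 23 with 16 subtracted before log2 and 6 without both arrays that stood apart. It was 0 to 5 with single arrays left out, the 0 lacking wild type replicate 3 and the 5 lacking Scnn1b-Tg replicate 3. Scnn1b itself gave 3.38 (adjusted p = 0.0559) when wild type replicate 3 was omitted. Of the receptors 0 were called, or 1, Lilr4b, under the dim filter and the trend. Of the genes listed by role 0 were called, or 1, Fcgr2b, under these and with 16 subtracted. Receptors at an unadjusted p under 0.05 numbered 13, or 8 of 25 under the dim filter and 8 to 13 with single arrays left out. Same-numbered replicates of the groups had deviations correlated at 0.03 to 0.04, against -0.06 to 0.02 for differently numbered ones. With 3 arrays a group, values this small cannot decide whether the numbers pair the samples. A replicate block gave 3 genes called and 14 receptors at an unadjusted p under 0.05. Of the 34 receptors 23 moved by over 1.5 times or changed sign without at least 1 array, 3 of them among the 13 at an unadjusted p under 0.05 (Cd300lb, Tlr1 and Treml4). With 16 subtracted before log2, 18 moved by over 1.5 times. The markers Chil3, H2-Ab1, Itgam and Alox15 were called under 4, 4, 3 and 2 alternatives.

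Some log2 fold changes near 0 changed sign. With quantile normalization the values were Siglec15 -0.0198 and Siglech -0.00346. With median centring, which moved the median of all genes to -0.02, the values were Cd300c -0.00199, Siglec15 -0.0149 and Siglech -0.0207. With array weights the values were Lilra5 -0.0196, Siglech -0.0180, Tlr2 0.00535 and Trem1 0.00871. Omitting both arrays that stood apart, the values were Lilra5 -0.0787, Siglech -0.0219, Tlr2 0.0128, Tlr9 -0.00721, Trem1 0.0124, Spib -0.0738, Cd79a -0.0620 and Ppbp -0.11. With single arrays left out the ranges were -0.0611 to 0.0766 for Siglec15, -0.0399 to 0.0410 for Tlr2, -0.0532 to 0.17 for Treml1, -0.36 to 0.72 for Ppbp, -0.0182 to 0.0708 for Cd300c, -0.0862 to 0.00498 for Tlr3, -0.0297 to 0.12 for Lilra5, -0.0422 to 0.0499 for Siglech, -0.0279 to 0.0863 for Tlr9, -0.11 to 0.0204 for Trem1 and -0.0402 to 0.32 for Itgb3. The causes were not tested. Signal near the lowest values of an array limits what dim receptors can show.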
